A study of Mus musculus with 12 samples.

Results

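The genes described here encode the proteins of the cytoplasmic ribosome. They were chosen by name: mRNA probes whose mouse symbol begins with Rpl or Rps and a number, without the Rps6k kinases and Rps19bp1, and the probes for Rplp0, Rplp1, Rplp2 and Rpsa. The array carried 95 such probes for 85 genes among its 37246 probes, and 92 of these probes, for 82 genes, were among the 22962 probes tested. Of the 82 genes, 47 belong to the large subunit, 3 to the stalk of the large subunit and 32 to the small subunit. In the counts below the 3 stalk genes are included with the large subunit.

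RNA was measured in C2C12 cells, a mouse myoblast line whose cells leave the cell cycle and fuse into myotubes when serum is lowered. Proliferating cells grew in medium with 10% fetal bovine serum to between 80 and 90% confluence. The differentiating groups were then kept in medium with 2% horse serum for 2, 5 or 8 days. Each of the 4 stages has 3 arrays, which the study calls independent experiments, and the arrays were one-colour Agilent arrays hybridised with Cy3-labelled cRNA made from 1 μg of total RNA. All groups are this 1 cell line without transgenes. Time, serum and confluence change together, so they cannot be told apart.

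The ribosome joins ribosomal RNA and a single copy of nearly every ribosomal protein into a small subunit that reads the mRNA and a large subunit that forms the peptide bond. The mRNAs of the ribosomal proteins begin with a C and a run of pyrimidines, the terminal oligopyrimidine (TOP) element, through which growth signals acting on mTOR and the protein Larp1 set how much these mRNAs are translated. Skeletal muscle makes new ribosomes when it grows, and muscle has its own large-subunit paralog, Rpl3l, which can take the place of Rpl3.

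The start regions of the genes with the largest changes are shown first, because the TOP element lies at the first bases of the transcript. The sequences come from RefSeq on GRCm38.p6, where 65 of the 85 genes matched the promoter table. Each line runs from 30 bases before to 30 bases from the annotated start, 5′ to 3′ on the gene's strand. Capitals mark every run of a C followed by at least 6 bases that are all C or T. The first 5 had the largest falls from proliferation to day 8 among the genes with an entry, leaving out Rpl32l.
Rpl12, chr2:32961682-32961741, plus strand: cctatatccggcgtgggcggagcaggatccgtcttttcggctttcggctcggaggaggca
Rps2, chr17:24720033-24720092, plus strand: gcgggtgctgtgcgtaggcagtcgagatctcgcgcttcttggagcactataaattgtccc
Rps23, chr13:90923092-90923151, plus strand: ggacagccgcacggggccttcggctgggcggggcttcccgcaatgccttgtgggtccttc
Rpl31, chr1:39367821-39367880, plus strand: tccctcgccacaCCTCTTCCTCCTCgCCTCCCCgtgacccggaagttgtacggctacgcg
Rps26, chr10:128626477-128626536, minus strand: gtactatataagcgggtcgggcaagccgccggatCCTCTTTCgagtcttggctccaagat
The next 3 genes are called lower at day 8 and have a run that begins within 5 bases of an annotated start. They were chosen for this run, and other such genes, among them Rps21 (-1.20), are not shown. Rpl35a is shown at the second of its 3 annotated starts, and the windows of the others hold no run. Rps24 is shown at the first of 2, and at the other the run begins 28 bases before the start.
Rpl35a, chr16:33056452-33056511, plus strand: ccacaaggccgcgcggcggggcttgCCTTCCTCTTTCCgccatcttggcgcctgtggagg
Rpl27a, chr7:109519165-109519224, plus strand: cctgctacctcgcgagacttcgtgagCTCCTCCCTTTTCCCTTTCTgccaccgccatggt
Rps24, chr14:24490648-24490707, plus strand: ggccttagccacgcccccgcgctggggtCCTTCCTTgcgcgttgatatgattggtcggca
The last is the gene that rose most, at the second of its annotated starts.
Rpl22, chr4:152325696-152325755, plus strand: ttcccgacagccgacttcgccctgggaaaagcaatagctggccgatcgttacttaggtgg

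Over the 65 genes, 40 (61.5%) held such a run on the sense strand of this window, against 8026 of the 27025 genes in the table (29.7%). On the opposite strand the run was found for 24.6% of the ribosomal protein genes and 33.7% of all genes. A run that begins within 5 bases of an annotated start was found for 21 of the 65 (32.3%) and for 6.68% of all genes. Among the genes called lower at day 8, 22 of 32 (68.8%) held a run, and among the tested genes without that call, 16 of 31 (51.6%) did. In the whole entry, 250 bases before to 50 after the start, CCGGAAG on either strand (the core bound by ETS factors) was present for 26 of 65 (40%) against 9.93% of all genes. The E-box CANNTG, to which MyoD and myogenin bind, was present on either strand for 33 of 65 (50.8%) against 75% of all genes. These are matches of letters, and a gene with several annotated starts counts once.

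Signals are log2 of the scanner's background-corrected intensity minus the array's 75th percentile, so a level of 6 lies 6 log2 units above that percentile. A probe's level depends on its sequence, so a level is read across arrays, and a rank of probes by signal says nothing of transcript abundance. A probe was tested where it stood well above background on every array of some stage. Of the 82 tested genes 80 did so on all 12 arrays. Rps15a was above background on 2 of 3 day 2 arrays, and Rpsa on 2, 3, 1 and 2 arrays at proliferation, day 2, day 5 and day 8. The 3 other genes, Rpl39l and Rps23rg1 among them, were not well above background on any array and were not tested. The array's probes for Rps4l carry a noncoding accession and were not counted among these genes. In probes of such short, conserved genes, RNA of processed pseudogenes or near-identical copies may add to the signal, and Rpl32l, a near copy of Rpl32, is reported as uncertain for this reason.

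The muscle genes checked the labels. Of 8 muscle markers, 5 rose from proliferation to day 8, among them the regulator Myog by 6.10, embryonic myosin Myh3 by 8.44 and muscle creatine kinase Ckm by 7.48 on the log2 scale, and Myf5 fell by 0.46 (adjusted p = 0.0207). Of the markers of other cells, Adgre1 (macrophages), Adipoq and Plin1 (adipocytes) and Alpl (osteoblasts) were above background on no array, and Ptprc, the common leukocyte antigen, on 2 of 12. Of the tested markers, 2 of 3 for macrophages, 1 of 4 for endothelium and 1 of 3 for neurons rose by day 8, and 1, 2 and 2 of them fell. For osteoblasts 1 of 3 fell, and the single adipocyte marker tested had no call. As multiples of the array's 75th percentile, the summed signal was 0.154 to 0.200 in proliferation and 0.236 to 0.278 at day 8 for macrophage markers, 0.213 to 0.294 and 0.480 to 0.619 for endothelial, 20.5 to 31.2 and 14.5 to 16.1 for neural, 8.38 to 10.7 and 6.92 to 10.3 for osteoblast, and 92.3 to 117.1 and 334.9 to 443.5 for muscle markers. Their part in the results below was not tested. In bulk RNA fewer cells of a type and less RNA per cell cannot be told apart.

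The arrays lay on 3 slides that follow the stages. Slide 1 held the 3 proliferation arrays and day 2 array 1, slide 2 held day 2 arrays 2 and 3 and day 5 arrays 1 and 2, and slide 3 held day 5 array 3 and the 3 day 8 arrays. Proliferation and day 8 shared no slide. Day 2 array 1 lay above both other day 2 arrays for 48 of the 82 genes, against 33.9% of all genes, and its median distance from their mean was 0.21 for the ribosomal protein genes and -0.01 for all genes. The scanner's flag for a non-uniform spot stood on 36.5 to 39.4% of the 104 ribosomal protein spots on the proliferation arrays and on 51 to 59.6% on the later arrays (all spots, 19.8 to 28.3%). No spot was saturated. The 75th percentile of the raw signal ran from 1295 to 1993, and 56.9 to 69.5% of spots were well above background.

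From proliferation to day 8 the ribosomal protein mRNAs were mostly lower. By limma's test with Benjamini-Hochberg adjustment over all probes and an adjusted p threshold of 0.05, 40 of the 82 genes fell (48.8%, against 30.8% of all 13743 named genes tested) and 2 rose (2.44%, against 25.7% of all genes). The other 40 had no call. The count differed in other fits. With the slide as a block 3 genes fell (3.66%, against 9.04% of all genes) and 1 rose. With spots marked as non-uniform left out, 40 genes had a value, of which 0 fell and 3 rose. That setting also moved the median of all probes, as described further on. The cause of these differences was not tested. The value was negative for 72 of the 82 genes, with a median change of -0.51 (quartiles -1.11 and -0.27, range -3.36 to 1.68), against a median of -0.11 over all genes. Of the 40 falls 21 were more than 2-fold. The 3 day 8 arrays all lay below the 3 proliferation arrays for 38 of the 82 genes, against 36.2% of all genes. Across the 4 stages 45 genes (54.9%) passed limma's F test at the same threshold, against 68% of all genes.

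**Figure D1:**
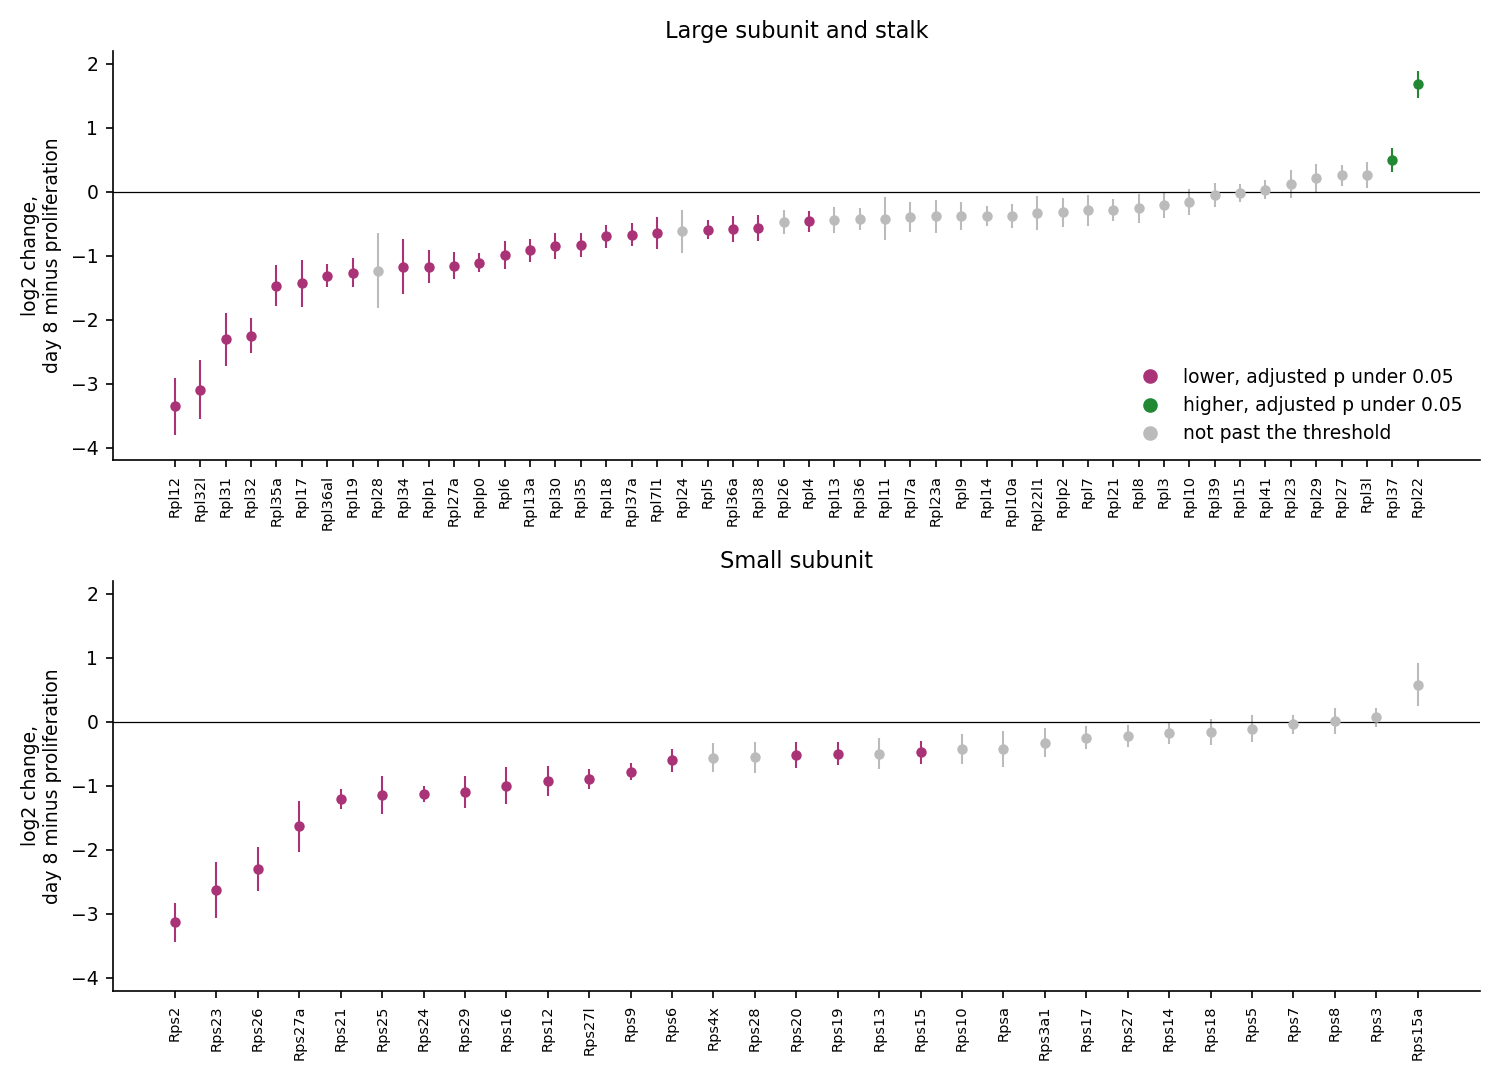
The log2 change from proliferation to day 8 (vertical axis) is plotted for the tested genes, 1 of them left out, in order of size, with bars of 1 standard error from limma, for the large subunit with the stalk (top) and the small subunit (bottom). Genes called lower are spread over both subunits, and Rpl22 at 1.68 and Rpl37 at 0.49 are the 2 called higher.

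The falls were spread over both subunits. Of the 50 large-subunit and stalk genes 23 fell and 2 rose, with a median change of -0.47. Of the 32 small-subunit genes 17 fell and none rose, with a median of -0.54. At an unadjusted p under 0.05, 45 of the 82 genes were lower, and Rpl22 and Rpl37 alone were higher. The share of all genes at that threshold is not given, so these counts cannot be set against it. By probe signal, which also depends on the probe's sequence, 53 of the 82 lay in the brightest 10% of genes, and that group had a median change of -0.11 with 28.8% of its 1375 genes called lower. Within the set, 13 of the 28 genes with the dimmest probes, 22 of the middle 27 and 5 of the 27 with the brightest fell. Spearman's rho between a probe's mean signal and its change was 0.21 over the 82 genes, a description over probes that share the arrays.

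By array, the median level of the 82 genes was 6.48, 6.79 and 6.99 in proliferation, 6.82, 6.24 and 6.26 at day 2, 6.07, 6.0 and 6.17 at day 5 and 5.59, 5.33 and 5.87 at day 8. The 3 day 8 arrays were below the other 9. Day 2 array 1, on the slide of the proliferation arrays, lay within the range of those arrays, and the other 2 day 2 arrays lay below it.

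**Figure D2:**
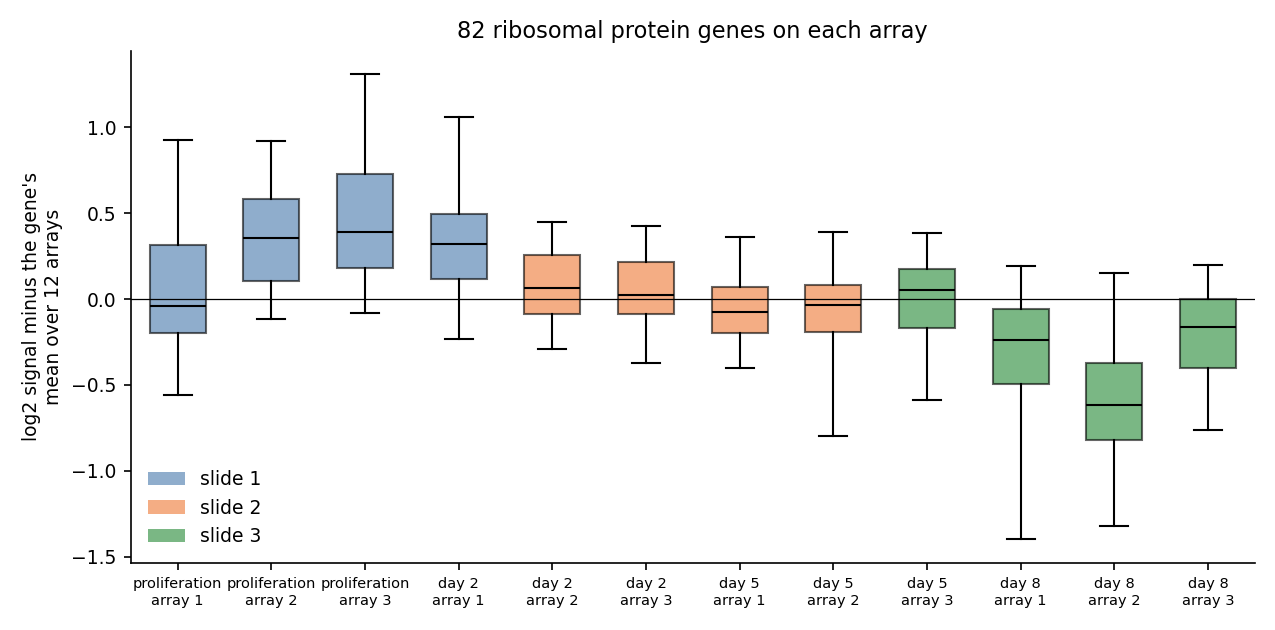
Each box shows the log2 signal of the 82 genes on 1 array, each gene minus its own mean over the 12 arrays, with the median, the quartiles and whiskers from percentile 5 to percentile 95; colours mark the slides. The boxes of the 3 day 8 arrays are the lowest, and day 2 array 1 sits with the proliferation arrays of its slide.

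Rpl12, a protein at the base of the stalk, had the largest fall. Its signal was 5.36, 5.76 and 6.43 in proliferation, 6.0, 4.13 and 4.16 at day 2, 4.05, 3.70 and 4.03 at day 5 and 2.68, 2.35 and 2.44 at day 8. All day 8 arrays were below all earlier ones, and within day 2 the array on slide 1 stood well above the other 2. The change from proliferation to day 8 was -3.36 ± 0.44 (SE), a 10.3-fold fall (adjusted p = 9.19e-05, limma).

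Rps2, a small-subunit protein near the mRNA entry site, was 5.72, 6.21 and 6.38 in proliferation, 5.85, 5.44 and 5.02 at day 2, 4.64, 4.61 and 3.75 at day 5 and 2.79, 2.75 and 3.38 at day 8. The day 5 arrays were all below the day 2 arrays and the day 8 arrays all below the day 5 arrays. The fall to day 8 was 8.77-fold (-3.13 ± 0.31, adjusted p = 8.85e-06). Rps2 also passed the threshold from day 2 to day 5 (-1.10 ± 0.31, adjusted p = 0.0184) and from day 5 to day 8 (-1.36 ± 0.31, adjusted p = 0.0183). These 2 step calls were lost under 4 and 7 of 19 alternatives.

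Rps23, a protein of the decoding centre, was called lower at the first 2 steps. It was 5.23, 4.98 and 5.55 in proliferation, 4.64, 3.13 and 2.97 at day 2, 2.03, 1.49 and 2.47 at day 5 and 2.71, 2.06 and 3.10 at day 8. It fell by 1.67 to day 2 (adjusted p = 0.0153) and by 1.59 from day 2 to day 5 (adjusted p = 0.0179), and its value from day 5 to day 8 was 0.63 ± 0.44 with no call. Within day 2 the array on slide 1 stood above the other 2. With the slide as a block the first step was -0.61 with no call (adjusted p = 0.309, limma) and the second -1.29 (adjusted p = 0.0231). Each of these 2 step calls was lost under 3 of 19 alternatives. From proliferation to day 8 it was 6.18-fold lower (-2.63 ± 0.44, adjusted p = 0.000456).

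Rps26, which lies at the mRNA exit channel, was 7.60, 7.64 and 7.72 in proliferation and 5.61, 4.63 and 5.81 at day 8, with 7.36, 6.60 and 6.11 at day 2 and 5.68, 5.89 and 6.24 at day 5. Its 3 proliferation arrays differed by little and its later arrays by more, and the arrays of day 8 did not overlap those of proliferation. The fall was 4.94-fold (-2.30 ± 0.35, adjusted p = 0.000228).

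Rpl31, a protein at the rim of the peptide exit tunnel, was 2.13, 1.37 and 2.14 in proliferation, 0.63, 0.02 and 0.65 at day 2, 1.36, -0.18 and 1.45 at day 5 and -0.73, -0.03 and -0.53 at day 8. Day 5 array 2 lay far below the other 2 of its stage. Rpl31 fell by 1.45 to day 2 (adjusted p = 0.0229) and was 4.96-fold lower at day 8 than in proliferation (-2.31 ± 0.41, adjusted p = 0.000768). The call at day 2 was lost under 5 of 19 alternatives, among them the slide block (-1.25, adjusted p = 0.161, limma).

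Rpl32, a large-subunit protein, fell late. It was 6.69, 7.04 and 7.40 in proliferation, 6.97, 6.21 and 6.33 at day 2, 6.13, 6.20 and 6.10 at day 5 and 4.99, 4.25 and 5.12 at day 8. The change from day 5 to day 8 was -1.35 ± 0.27 (adjusted p = 0.0117) and that from proliferation to day 8 -2.25 ± 0.27, or 4.77-fold (adjusted p = 4.61e-05). The probe for Rpl32l changed by -3.09 ± 0.47 (adjusted p = 0.000233) at a much dimmer signal of -1.75, -1.47 and -1.06 in proliferation and -4.45, -4.77 and -4.35 at day 8. How much of its signal is Rpl32 RNA was not tested.

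Further falls were outside the naming rule, and these genes were named after their values were seen. Rps27a, made as a fusion with ubiquitin, changed by -1.63 (adjusted p = 0.00559), Rpl35a by -1.47 (adjusted p = 0.00266) and Rpl17 by -1.44 (adjusted p = 0.00623). With the slide as a block all 3 calls were lost, with values of -0.38 for Rps27a (adjusted p = 0.725), -0.13 for Rpl35a (adjusted p = 0.905) and -0.79 for Rpl17 (adjusted p = 0.516).

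**Figure D3:**
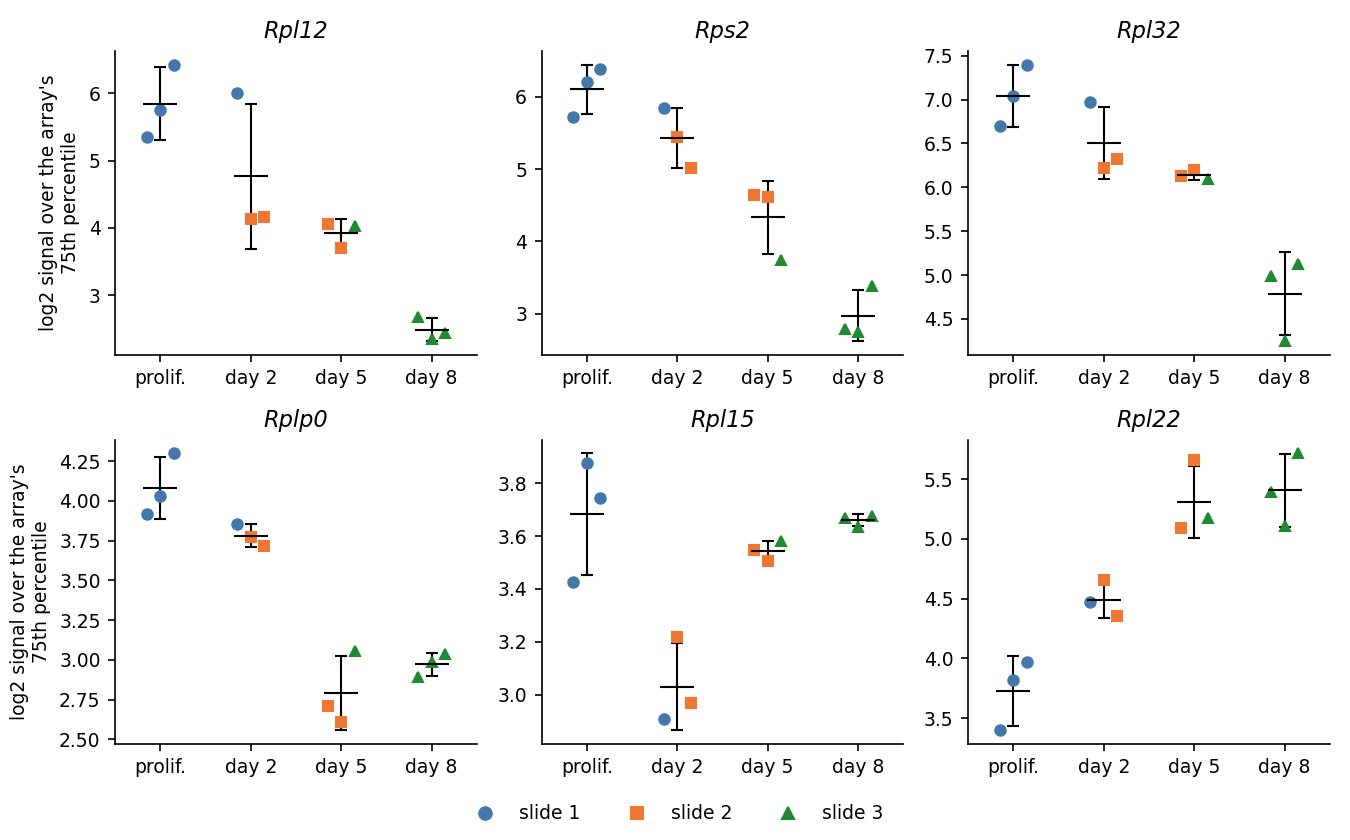
The log2 signal over the array's 75th percentile (vertical axes) of 6 genes is plotted for each of the 12 arrays by stage, with the mean and SD of the 3 arrays and a marker for the slide. Rpl12, Rps2 and Rpl32 are lowest at day 8, Rplp0 drops between day 2 and day 5, Rpl15 is low at day 2 only and Rpl22 goes up.

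Of the stalk genes Rplp0 and Rplp1 fell and Rplp2 had no call. The stalk, a complex of Rplp0 with Rplp1 and Rplp2, recruits the elongation factors to the large subunit. Rplp0, its anchor, was 3.92, 4.03 and 4.30 in proliferation, 3.86, 3.77 and 3.71 at day 2, 2.71, 2.61 and 3.06 at day 5 and 2.89, 2.98 and 3.04 at day 8. All 6 arrays of days 5 and 8 lay below all 6 earlier arrays. The fall came from day 2 to day 5 (-0.99 ± 0.15, adjusted p = 0.000486), and from proliferation to day 8 it was 2.16-fold (-1.11 ± 0.15, adjusted p = 0.000103).

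Rplp1 was 7.22, 7.97 and 8.04 in proliferation and 6.74, 6.18 and 6.79 at day 8 and fell 2.25-fold (-1.17 ± 0.25, adjusted p = 0.00258). Rplp2 was 8.25, 8.38 and 8.61 in proliferation and 8.28, 7.57 and 8.41 at day 8. These arrays overlapped, and its change of -0.33 ± 0.23 had no call (adjusted p = 0.245). Whether Rplp2 differed from its partners was not tested. The dim probe for Rpsa, a small-subunit protein also known as a laminin receptor, changed by -0.42 ± 0.28 to day 8 with no call (adjusted p = 0.232); from day 2 to day 5 it was called lower (adjusted p = 0.0197), but it was above background on 1 of the 3 day 5 arrays, so the size of that fall is not given.

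Rps24, named after its values were seen, also fell at the second step. It fell by 0.87 from day 2 to day 5 (adjusted p = 0.000311) and was 2.19-fold lower at day 8 than in proliferation (-1.13 ± 0.12, adjusted p = 2.16e-05). Rps6, Rpl5 and Rpl11 were also outside the naming rule. By day 8 Rps6, the small-subunit protein that S6 kinase phosphorylates downstream of mTOR, fell by 0.60 ± 0.18 (adjusted p = 0.016). Rpl5, which with Rpl11 and the 5S RNA forms a particle that can bind Mdm2, fell by 0.59 ± 0.15 (adjusted p = 0.00587). Rpl11 had a value of -0.42 ± 0.34 and no call (adjusted p = 0.309). With the slide as a block the calls of Rps6 and Rpl5 were lost. Their values were then -0.44 for Rps6 (adjusted p = 0.472, limma) and -0.88 for Rpl5 (adjusted p = 0.142, limma).

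Rpl22 went up, against the direction of most of the set. Rpl22 is an RNA-binding protein of the large subunit that is also known for work outside the ribosome in developing lymphocytes. Its signal was 3.4, 3.82 and 3.97 in proliferation, 4.47, 4.65 and 4.35 at day 2, 5.09, 5.66 and 5.18 at day 5 and 5.39, 5.11 and 5.72 at day 8. Each array of days 5 and 8 lay above each array of the first 2 stages, and the day 5 and day 8 arrays overlapped. It rose by 0.76 to day 2 (adjusted p = 0.0213), by 0.82 from day 2 to day 5 (adjusted p = 0.0142) and 3.2-fold in all by day 8 (1.68 ± 0.21, adjusted p = 7.12e-05). Each of the 2 step calls was lost under 5 of 21 alternatives.

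Its paralog Rpl22l1 was 4.26, 5.25 and 5.57 in proliferation, 5.51, 5.39 and 5.36 at day 2, 5.14, 4.98 and 5.35 at day 5 and 4.72, 4.75 and 4.59 at day 8. Its change to day 8 was -0.34 ± 0.27 with no call (adjusted p = 0.318), and proliferation array 1 lay below the day 8 arrays while the other 2 lay above. Within each array the difference between Rpl22 and Rpl22l1, which no scaling of the array can alter, was 2.01 larger at day 8 than in proliferation. The 3 day 8 arrays did not overlap the 3 proliferation arrays in it. An exact two-sided permutation test gave p = 0.1 (0.167 after Benjamini-Hochberg adjustment over 5 paralog pairs), and 0.1 is the smallest p that 3 against 3 arrays allow.

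The other paralog pairs were compared in the same way. The difference between Rpl36a and Rpl36al was 0.73 larger at day 8, without overlap (exact permutation p = 0.1, adjusted 0.167): Rpl36a fell by 0.59 ± 0.20 (adjusted p = 0.0268, limma) and Rpl36al by 1.31 ± 0.19 (adjusted p = 0.000153, limma). With the slide as a block both calls were lost and the values were alike, -0.49 for Rpl36a (adjusted p = 0.532) and -0.44 for Rpl36al (adjusted p = 0.378). The difference between Rps27 and Rps27l was 0.67 larger, also without overlap (exact permutation p = 0.1, adjusted 0.167). Rps27 was 7.32, 7.59 and 7.65 in proliferation and 7.40, 6.98 and 7.50 at day 8 (-0.23 ± 0.17, no call). Rps27l, which is known as a p53 target, was 6.40, 6.59 and 6.81 in proliferation and 5.57, 5.54 and 6.0 at day 8, a fall of 0.90 ± 0.16 (adjusted p = 0.000738, limma) that the slide block left without a call (-0.76, adjusted p = 0.243).

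For Rpl7 and Rpl7l1 the difference changed by 0.36 and the arrays overlapped (exact permutation p = 0.5). Rpl7l1 fell by 0.65 ± 0.25 to day 8 (adjusted p = 0.0465, limma), a call lost under 10 of 19 alternatives. Rpl7 had no call at day 8 (-0.29 ± 0.24) and fell by 0.76 from day 2 to day 5 (adjusted p = 0.0356), where day 5 arrays 1 and 2, at 3.01 and 3.10, lay below array 3 at 4.04; this call was lost under 9 of 19 alternatives.

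The muscle paralog Rpl3l passed the threshold in none of the 4 comparisons run, which do not include day 5 against proliferation, and its F test across the 4 stages gave an adjusted p of 0.0234. It was -3.15, -2.88 and -2.72 in proliferation, -2.77, -2.52 and -2.15 at day 2, -2.18, -2.01 and -2.16 at day 5 and -2.94, -2.69 and -2.35 at day 8. Its values were highest at day 5, and the change to day 8 was 0.26 ± 0.20 (adjusted p = 0.287). With another background correction it was called higher at day 8 (normexp, 0.52, adjusted p = 0.0104), and with the slide in the model the value was -0.11. Rpl3 was 7.85, 7.95 and 8.36 in proliferation and 7.91, 7.52 and 8.08 at day 8 (-0.22 ± 0.20, adjusted p = 0.383). The difference between Rpl3 and Rpl3l changed by -0.48, with overlap (exact permutation p = 0.2, adjusted 0.25).

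The members whose paralogs were not tested had no call at day 8. Rpl39, a small protein of the exit tunnel, changed by -0.06 ± 0.19 (adjusted p = 0.815), Rpl10, needed for the subunits to join, by -0.16 ± 0.21 (adjusted p = 0.535) and the X-linked Rps4x by -0.56 ± 0.23 (adjusted p = 0.0555).

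**Figure D4:**
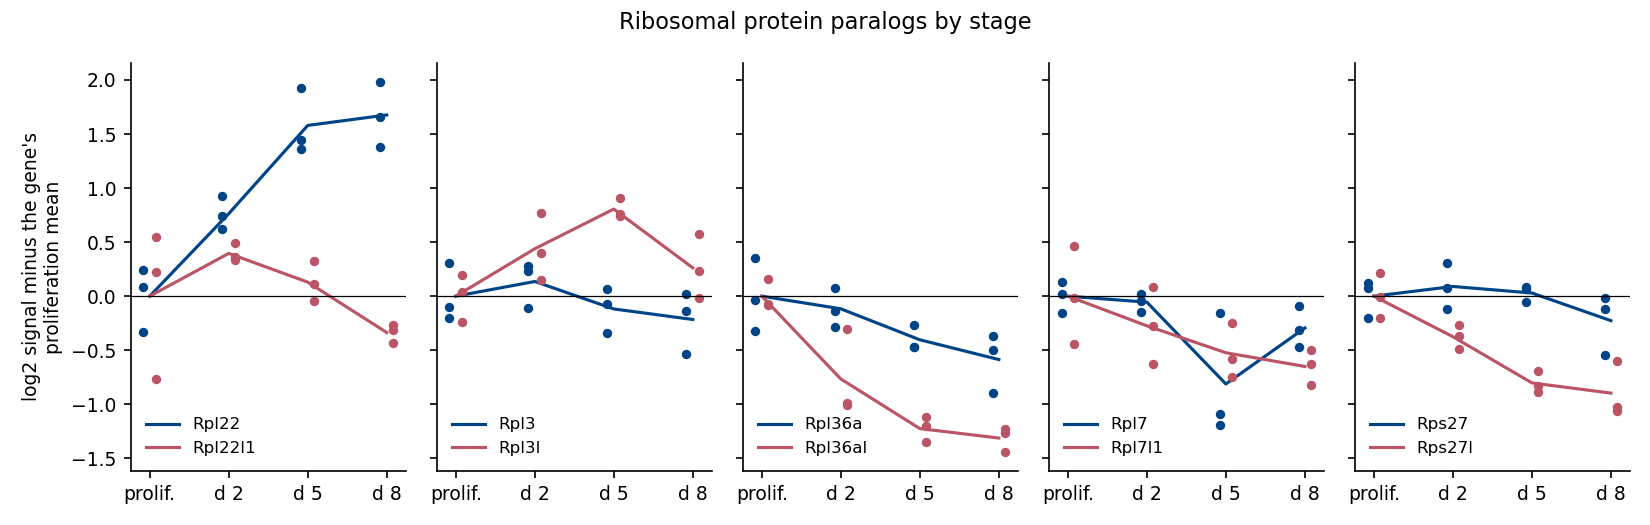
The log2 signal of each gene minus its own mean in proliferation (vertical axis) is plotted for 5 paralog pairs at the 4 stages, with a point for each array and lines through the stage means. The lines of Rpl22 and Rpl22l1 part from day 2 on, Rpl36al and Rps27l run below Rpl36a and Rps27, and Rpl7 is lowest at day 5.

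Single steps gave few calls. From proliferation to day 2, 7 genes fell (8.54%, against 12.2% of all genes) and 3 rose (3.66%, against 20.4%). The median change was -0.11, against 0.10 over all genes. The falls were those of Rps23, Rpl31 and Rpl36al (-0.77, adjusted p = 0.0111), of Rpl15 and, at smaller size, of Rpl4 (-0.58, adjusted p = 0.0244), Rps21 (-0.49, adjusted p = 0.0337) and Rpl5 (-0.47, adjusted p = 0.033). The rises were those of Rpl37 (0.84, adjusted p = 0.00809), Rpl22 and Rpl41 (0.58, adjusted p = 0.0155). Without day 2 array 2 the falls were 2, without proliferation array 2 or 3 they were 4, and without proliferation array 1 the rises were 1. With quantile normalization 17 genes fell and 2 rose.

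Rpl15, a large-subunit protein needed for rRNA maturation, dipped and came back. It was 3.43, 3.88 and 3.74 in proliferation, 2.91, 3.22 and 2.97 at day 2, 3.55, 3.51 and 3.58 at day 5 and 3.67, 3.63 and 3.68 at day 8. All day 2 arrays were below all others. It fell by 0.65 ± 0.14 to day 2 (adjusted p = 0.00609) and rose by 0.51 ± 0.14 from day 2 to day 5 (adjusted p = 0.0171). At day 8 it stood -0.02 ± 0.14 from its proliferation level. The call of the fall to day 2 was lost under 1 of 19 alternatives and that of the rise under 6 of 19. Rpl41, which encodes one of the smallest proteins of the cell, was 8.33, 8.54 and 8.41 in proliferation and 8.99, 9.02 and 9.02 at day 2. This call was lost under 4 of 21 alternatives. At day 8 the value of Rpl41 against proliferation was 0.03 ± 0.15. Rpl37, a zinc-finger protein of the large subunit, was -2.32, -1.87 and -1.71 in proliferation, -1.28, -1.10 and -1.02 at day 2 and -1.54, -1.65 and -1.24 at day 8. Its rise to day 8 (0.49 ± 0.19, adjusted p = 0.048) lay at the edge of the threshold and was lost under 12 of 21 alternatives.

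From day 2 to day 5, 6 genes fell (7.32%, against 18% of all genes) and 3 rose (3.66%, against 13.6%), with a median of -0.20 against -0.11. Rps23, Rps2, Rplp0, Rps24 and Rpl7 fell, and Rpsa, mostly at background at day 5, was called lower. Rps15a, a small-subunit protein measured here with a very dim probe, rose by 1.34 ± 0.33 (adjusted p = 0.0106), from -6.82, -5.87 and -6.21 to -4.75, -4.83 and -5.30, and Rpl22 and Rpl15 rose. At day 8 Rps15a had a value of 0.58 ± 0.33 with no call, and it was called higher with normexp (0.58, adjusted p = 0.013), with quantile normalization (0.96, adjusted p = 0.023) and with flagged spots left out (1.23, adjusted p = 0.0176). Without day 2 array 1 or day 5 array 2 the falls were 3, and without day 2 array 3 the rises were 1.

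From day 5 to day 8, 5 genes fell (6.1%, against 7.18% of all genes) and none rose by limma (against 6.21%). At an unadjusted p under 0.05, 16 were lower and 1 was higher, and the share of all genes at that threshold is not given. With normexp background 6 fell and 1 rose. The median was -0.31 against -0.08 over all genes, and 70 of the 82 values were negative. Rpl32l (-1.71, adjusted p = 0.0383), Rps2, Rpl32, Rps9 (-0.51, adjusted p = 0.0331) and Rpl38 fell. The call of Rpl32l was lost under 11 of 19 alternatives. Rpl38, known for its effect on the translation of Hox mRNAs, was 7.0, 6.76 and 7.06 at day 5 and 6.39, 5.94 and 6.40 at day 8 (-0.70 ± 0.20, adjusted p = 0.0486), a call lost under 16 of 19 alternatives. Leaving out 1 array (any of day 5 or day 8, proliferation array 2 or day 2 array 3) left 1 to 3 falls.

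The course over the steps varied between genes. Of the 82 genes 37 (45.1%) had a negative value at all 3 steps, against 15% of all genes; the slides follow the stages, and within slide 1 the first step was below 0 for 31 genes. Among the 40 genes called lower at day 8, 30 had a negative value at all 3 steps and 36 had their lowest stage mean at day 8. Their largest drop came at the first step for 13, the second for 11 and the third for 16, and the median steps of -0.30, -0.33 and -0.42 were similar in size. Each of these genes was chosen for its difference between the first and last stage, so these counts describe the course and test nothing.

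Within slides the genes' median lay furthest below that of all genes at the last step. On slide 1 the single day 2 array against the 3 proliferation arrays gave a median of 0.11, against 0.10 over all genes, with 31 of 82 genes below 0. On slide 2 the 2 day 5 arrays against the 2 day 2 arrays gave -0.10, against -0.06, with 53 below 0. On slide 3 the 3 day 8 arrays against the single day 5 array gave -0.38, against -0.03, with 67 below 0. With the slide as a block no ribosomal protein gene was called lower at that last step. From day 2 to day 5 the same fit called 4 lower (Rplp0, Rpl7, Rps24 and Rps23, 4.88%, against 13.5% of all genes).

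With the slide as a block, proliferation and day 8 are linked only through the single arrays shared between slides, and the median SE of the genes rose from 0.21 to 0.49. The median change to day 8 was then -0.39, against -0.01 over all genes, and 69 of 82 genes were below 0, but only 3 passed the threshold as lower (3.66%, against 9.04% of all genes) and 1 as higher. The falls were those of Rplp0 (-1.39, adjusted p = 0.0179), Rps24 (-1.32, adjusted p = 0.0179) and Rpl7 (-1.26, adjusted p = 0.0361), and the rise was that of Rpl22 (1.84, adjusted p = 0.0449). Of the 40 genes called lower without the block 38 kept a negative value. Rpl12 had -1.66 (adjusted p = 0.0886), Rps2 -1.63 (adjusted p = 0.0713), Rps23 -1.74 (adjusted p = 0.0998), Rps26 -1.75 (adjusted p = 0.111), Rpl32 -1.48 (adjusted p = 0.123), Rplp1 -1.07 (adjusted p = 0.25), Rpl32l -0.39 (adjusted p = 0.658) and Rpl31 -2.88 (adjusted p = 0.0673).

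**Figure D5:**
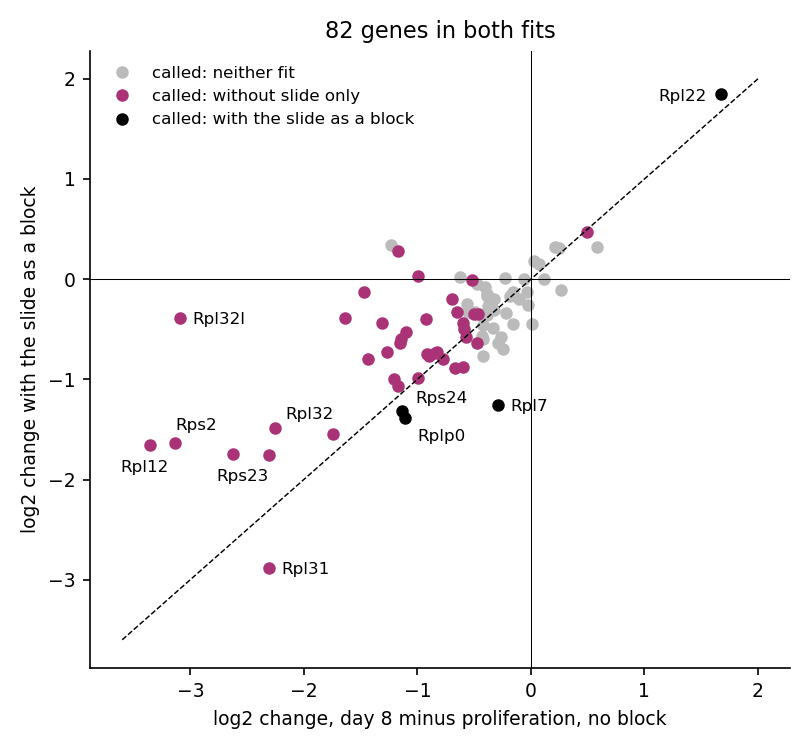
The log2 change from proliferation to day 8 is plotted for 82 genes without a block (horizontal axis) and with the slide as a block (vertical axis); the dashed line marks equal values. Most genes lie below 0 on both axes, Rplp0, Rps24, Rpl7 and Rpl22 pass the threshold with the block, and the changes of Rpl12, Rps2 and Rpl32l are smaller with it.

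The counts also differed with the handling of spots flagged as non-uniform and with the scaling. When flagged spots were left out, 40 of the 82 genes kept a value, and of these 0 fell and 3 rose at day 8 by limma (0 and 5 at an unadjusted p under 0.05), with a median of 0.27 while the median of all probes moved from -0.11 to 0.51. With the scaling percentile taken from all spots and only the gene values taken without flagged spots (an alternative chosen after the data were seen), 6 fell (Rpl30, Rpl36a, Rpl6, Rps12, Rps19 and Rps24) and 1 rose. Relative to all probes the genes' median change was -0.25 in both, against -0.39 with all spots kept. With normexp background 36 fell and 4 rose, and with quantile normalization 37 fell and 3 rose. These scalings moved the median of all probes to 0.15 and 0.02, and the genes' median relative to it was -0.59 and -0.35. Without the filter on dim probes the median of all probes was -0.52, and the genes' median relative to it was -0.00866. Of the calls over all probes at day 8, 46.3% were rises in the main scaling, 60.7% with normexp and 53.1% with quantile normalization. The share was 79.7% with flagged spots left out and 48.2% when the percentile then came from all spots. Of the ribosomal protein genes' own calls 4.76%, 10%, 7.5%, 100% and 14.3% were rises, in the same order. The shares of all genes called lower or higher outside the main scaling are not given, so the counts in this paragraph lack that comparison.

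Genes with several probes gave the same direction. Of the 7 genes with more than 1 tested probe, none had probes called in opposite directions. The 3 probes of Rpl35a changed by -1.47 to -1.27, the 3 of Rps24 by -1.13 to -0.96, the 2 of Rps27a by -1.86 to -1.63 and the 2 of Rpl19 by -1.33 to -1.27, and all of them were called lower, as were both probes of Rpl34 and of Rpl13a. Of the 3 probes of Rpl38, with changes of -0.57 to -0.18, 2 were called lower. Probes of 1 gene share its RNA and are not replicates.

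Other genes of translation were described from lists chosen by role, beside the 30.8% of all genes that fell and the 25.7% that rose by day 8. Of 19 other TOP mRNAs, which include elongation factors and partners of the ribosome, 9 fell (47.4%) and 1 rose (5.26%), with a median of -0.70. The nucleolar chaperone Npm1 (-1.59, adjusted p = 1.43e-05), Eef1d, a subunit of the exchange factor of elongation (-1.59, adjusted p = 1.96e-06), and the initiation factor subunit Eif3e (-1.29, adjusted p = 0.000194) had the largest falls. The helicase cofactor Eif4b rose by 0.53 (adjusted p = 0.0175), a call lost under 4 of 21 alternatives. Of 30 initiation factors 15 fell (50%) and the other 15 had no call (median -0.42), with Eif4a2 at -1.56, the cap-binding Eif4e at -1.04 and Eif3i at -1.03. Of 8 elongation and release factors 4 fell (50%), among them the release factor Etf1 (-1.73), Eef1e1 (-1.54) and Hbs1l (-0.85), and the kinase that inhibits Eef2, Eef2k, rose by 0.69 (1 of 8, 12.5%).

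Most genes that control translation and ribosome production had no call at day 8. Of 16 such genes 12 had no call. The 3 that fell (18.8%, against 30.8% of all genes) and the 1 that rose (6.25%, against 25.7%) lay below the shares of all genes. Their median of 0.23 was positive. Eif4ebp2, a repressor of Eif4e, fell by 2.56 (adjusted p = 3.98e-06), from 2.74, 3.09 and 3.04 in proliferation to 0.68, 0.38 and 0.12 at day 8. Myc, which drives ribosome production, fell by 2.33 (adjusted p = 6.99e-06), from 2.18, 2.50 and 2.73 to 0.17, 0.39 and -0.13. Larp1, the protein that binds the TOP element, fell by 0.36 ± 0.12 (adjusted p = 0.0219), and Deptor, an inhibitor of mTOR, rose by 0.61 (adjusted p = 0.0405), a call lost under 12 of 21 alternatives.

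The 3 snoRNA host genes on the array that were tested, Snhg3 (-1.25), Snhg6 (-0.91) and Snhg1 (-0.70), all fell; such transcripts also begin with pyrimidine runs. Of 75 mitochondrial ribosomal protein genes, which encode the separate ribosome of mitochondria, 34 fell (45.3%) and 1 rose (1.33%) by day 8, with a median of -0.42. Mrps18c (-1.49), Mrps6 (-1.48) and Mrps17 (-1.43) had the largest falls and Mrpl19 rose by 0.54.

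With the slide as a block the falls in these lists came down to 2 of 19 TOP mRNAs, 2 of 30 initiation factors, 1 of 8 elongation and release factors, 2 of 16 control genes, 2 of 3 snoRNA host genes and 8 of 75 mitochondrial ribosomal protein genes. In that fit 9.04% of all genes were called lower, and apart from the 3 snoRNA host genes the lists lay near that share. Npm1 (-2.01, adjusted p = 0.00716), Eef1d (-1.78, adjusted p = 0.00553), Eif4a2 (-1.31, adjusted p = 0.0364), Eif4e (-1.22, adjusted p = 0.0129), Eef1e1 (-1.88, adjusted p = 0.0387), Eif4ebp2 (-1.70, adjusted p = 0.035), Myc (-2.01, adjusted p = 0.0257), Snhg1, Snhg3, Mrps6 and Mrps18c kept their calls. The calls of Eif3e (-0.49, adjusted p = 0.399), Eif3i (-0.71, adjusted p = 0.46), Etf1 (-0.95, adjusted p = 0.414), Hbs1l (-0.76, adjusted p = 0.24), Larp1, Snhg6 and Mrps17 were lost, as were the rises of Eif4b, Eef2k, Deptor and Mrpl19.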

How the data were processed

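Per the file headers and the submitters' processing notes, the authors scanned one-colour Agilent arrays with Feature Extraction 10.5.1.1 and deposited its background-corrected intensity per spot, not normalized between arrays. Here log2 of that deposited intensity minus the array's 75th percentile was taken after control spots, negative probes and population outliers were left out, and spots of a probe were averaged. Tested probes were those well above background on every array of some stage. Stage means over the 12 arrays were fitted with limma 3.58.1 in R 4.3.3 and adjusted by Benjamini-Hochberg over all probes tested. A gene was represented by its brightest tested probe. Accessions were named through RefSeq. The normexp alternative (offset 50) used median signals, since mean signals were not among the columns used. Named genes were paralogs, the 8 largest falls and rises to day 8 without overlap, the 4 largest of each step, stalk members with Rpsa, untested members and up to 3 rises and falls of each list. Members and lists were chosen with earlier results of these data known. The number of arrays limits the precision. P-values measure the spread between arrays of a stage. Values of 2 member genes are not reported here by name.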

Additional observations from a re-analysis of the deposited data

How the results depend on the processing

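Of the 17 named ribosomal protein genes called at day 8 against proliferation, 2 kept the call under each alternative that gave them a value (Rpl22 under 21, Rplp0 under 19, with none where non-uniform spots were left out), 11 lost it only with the slide block and 4 under others too. Leaving out 1 array gave ranges of 31 to 46 falls and 1 to 2 rises at day 8 (median change -0.65 to -0.38), 2 to 8 falls and 1 to 4 rises at day 2, 3 to 7 and 1 to 3 from day 2 to day 5, 1 to 5 and 0 to 1 from day 5 to day 8, and 34 to 49 genes changed across the stages.

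With normexp background there were 3 falls and 1 rise from day 2 to day 5, 1 rise from day 5 to day 8 and 4 rises at day 8. Falls at day 2 were 12 when the percentile came from probes detected on each array, 17 with quantile normalization and 3 without a filter, where there was 1 fall from day 5 to day 8 and 1 rise at day 8. With non-uniform spots left out, day 2 had 0 falls, 5 rises and a median of 0.67, day 5 against day 2 had 0 falls, 1 rise and 0.0849, day 8 against day 5 had 0 falls, day 8 against proliferation had 0 falls and 0.27, and 7 genes changed across the stages. When the percentile came from all spots these were 0 falls at day 2, 2 falls and 1 rise from day 2 to day 5, 0 falls from day 5 to day 8, 6 falls and 1 rise at day 8, and 10 genes changed. With the slide block there were 1 fall and 0 rises at day 2, 4 falls and 1 rise from day 2 to day 5, 0 falls from day 5 to day 8, 3 falls and 1 rise at day 8, and 8 genes changed. Of all genes 5.75%, 13.5%, 1.48% and 9.04% were called lower in these 4 comparisons. Fewer genes had a value without non-uniform spots; otherwise the cause was not tested.

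Values that changed sign at day 8 were, with normexp, Rps27 0.0192, Rpl15 0.0511 and Rpsa 0.30; with quantile normalization, Rpl39 0.18, Rps27 0.0283 and Rpsa 0.16; with non-uniform spots left out, Rpl3 0.44, Rpl36a 0.0658, Rpl39 0.59, Rpl10 0.49, Rps4x 0.0889, Rps27 0.43, Rpsa 0.23, Rplp2 0.33, Hbs1l 0.0934 and Larp1 0.29, and Hbs1l from day 2 to day 5 0.32 (0.13 with the all-spot percentile); with the slide block, Rpl3l -0.11 and Rps27 0.0164. Leaving out 1 array gave ranges of -0.20 to 0.15 for Rpl39, -0.30 to 0.0427 for Rpl10, -0.0710 to 0.15 for Rpl41 and -0.15 to 0.0737 for Rpl15, none of which was called.

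Same-numbered arrays of different stages had deviations correlated at -0.16 to 0.24 (median 0.0053), with 5 of 18 pairs over 0.1. For arrays of different numbers the range was -0.26 to 0.22 (median -0.014), with 6 of 36 pairs over 0.1. Because these ranges overlap, they do not settle whether the replicate numbers pair the samples. With the replicate number as a block there were 38 falls and 2 rises at day 8.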
